A study of Mus musculus with 47 samples.

Results

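The regions described here are the CLK:BMAL1 binding sites of mouse liver that lie in intergenic DNA more than 10 kb from a gene. They were taken from the peak list by its genomic class, and 22.3% of the 3217 ChIP-seq peaks belonged to it, while 2500 peaks fell into other classes. Nucleosome occupancy at these sites was measured by MNase-seq in 23 livers of Bmal1-/- mice and 24 livers of wild-type mice, all C57BL/6 adults of 3 to 6 months. Bmal1-/- mice carry no functional BMAL1 in any tissue. The mice were held in 12 h light and 12 h dark, and livers were taken at ZT02, ZT06, ZT10, ZT14, ZT18 and ZT22, where zeitgeber time (ZT) counts hours from the start of light. There were 4 mice of each genotype at each time, except for 3 Bmal1-/- mice at ZT22, where replicate 8 has no library here. A replicate series here means all mice with 1 replicate number, over the times, and the numbers were 5, 8, 9 and 10 in Bmal1-/- and 11, 12, 26 and 27 in wild type.

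CLK (CLOCK) and BMAL1 are basic helix-loop-helix PAS proteins that bind DNA as a pair, at E-box motifs, and drive the daily rhythm of clock genes such as the Per and Cry genes, whose products then inhibit the pair. In mouse liver the binding of the pair to DNA is rhythmic and is strongest in the daytime. Binding sites far from any gene are often enhancers, and an enhancer that is occupied by transcription factors is usually depleted of nucleosomes at its middle. Micrococcal nuclease digests DNA that no nucleosome protects, so a trough in MNase signal marks a place with fewer protected fragments.

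The peaks of the class lay on 20 chromosomes (mm9). The highest in the list was peak P0014 at chr6:94949091-94949570, which was the 14th of all peaks. It was followed by P0025 at chr17:29533711-29534090, P0031 at chr11:90279131-90279740, P0037 at chr5:136150721-136151030 and P0040 at chr13:44401501-44402070. The 3 widest were P0240 at chr15:83986281-83986970 with 690 bp, P0047 at chr15:88680731-88681370 with 640 bp, and P0031 with 610 bp. All 3 were among the first 322 of the list. Each window of the signal table is 3 kb long and is centred on its peak to within 0.5 bp.

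The class was less common at the head of the list than at its end. Cut into 10 parts of like size, the list held 59 members among its first 322 peaks (18.3%) and 80 among its last 319 (25.1%), with 64 to 80 members in each of the other parts. Peak width had a median of 310 bp with quartiles of 260 and 380 bp, and the 2500 peaks of all other classes also had a median of 310 bp. Within the class, the first 200 peaks in list order had a median width of 365.5 bp, against 290 bp for the rest. Chromosome 8 held the most members (56), followed by chromosome 11 (54) and chromosome 5 (53), and the X chromosome held 3. The class took 33.8% of the peaks of chromosome 13 and 15% of those of chromosome 7. These counts describe the list and were not tested, since peaks are not replicates.

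**Figure D1:**
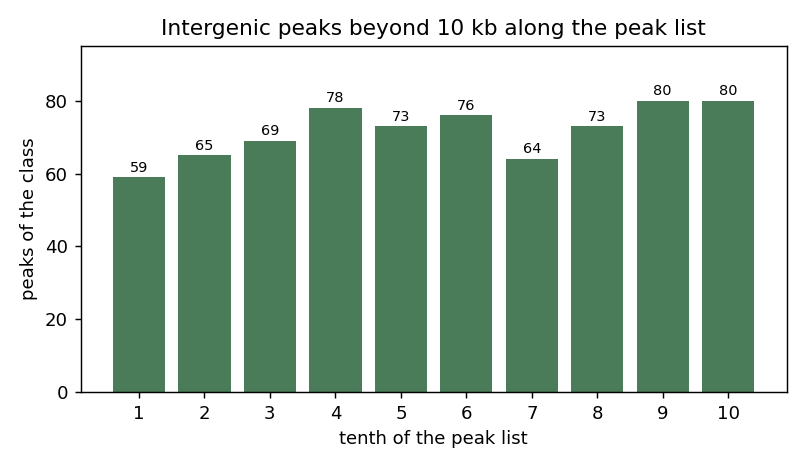
Number of intergenic peaks beyond 10 kb (vertical axis) in 10 consecutive parts of the peak list (horizontal axis), where each of the first 9 parts has 322 peaks and the last has 319. The count is 59 in the first part and 80 in each of the last 2.

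Most of these sites stood alone. The nearest peak of any class was at a median distance of 48445 bp, against 18865 bp for the intergenic class nearer to genes, within 10 kb, and 42215 bp for intron peaks. A peak at a transcription start site (TSS) lay within 100 kb of 15.6% of the members. For intergenic peaks within 10 kb this share was 22.8%, and for intron peaks it was 15.7%. The windows of 16.9% of the members overlapped that of another peak, nearly always another member. The windows of 598 members overlapped no other member, and the rest formed 42 pairs, 7 runs of 3, 2 runs of 4 and 1 run of 6. The run of 6 lay on chromosome 1, where the peak middles spanned 2110 bp from P0479 at chr1:193268131-193268660 to P2197 at chr1:193270361-193270650, and it was named after its size was seen. Peaks of 39 members overlapped each other directly. The closest pair had middles 40 bp apart, P1878 at chr4:149172791-149173011 lying inside P1136 at chr4:149172751-149173131. An average over the class thus counts some stretches of DNA more than once.

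The deposited MNase signal is a scaled coverage averaged over the peaks of a set, with 300 positions at steps of 10 bp, so that no single peak has a value. The class was deposited whole, as its top 200 peaks and as its top 25%. The size of the top 25% set is not in its name, and among sizes near it 180 was the one by which its values multiplied to whole numbers at the third decimal. The profile of the peaks outside the top 200, called the remaining peaks here, was obtained by count-weighted subtraction, and 0 of 14100 differences were negative. The class is much larger than 200 peaks, so at similar signal the differences would be positive even for 200 peaks from outside it. This count therefore cannot show that the top 200 are members of the class, which was taken from the name of the set. By which value the top sets were ranked is not stated in the labels or headers. About 5616 to 10860 fragments covered a central position of the class profile in a library, a counting error of 0.96% to 1.33%, and for the top 200 peaks the error was 1.89% to 2.55%. Library depth relative to the shallowest was 1 to 1.83 (median 1.35) in Bmal1-/- and 1.07 to 2.09 (median 1.5) in wild type. It was read from the worth of 1 fragment in the scaled signal. This takes all libraries as scaled to 1 common total, which the labels and headers do not state.

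The first question was whether distal sites carry a different nucleosome signal when BMAL1 is missing. Both genotypes had a trough at the peak middle, and it was shallower in Bmal1-/- livers. At its lowest, 35 bp to the left of the middle in both genotypes, the mean profile was at 75.7% of the flank in Bmal1-/- and at 64.2% in wild type. The flank is the mean signal more than 1000 bp from the middle. To the left of the middle the profile crossed 90% of the flank at -165 bp in Bmal1-/- and at -205 bp in wild type. A trough was thus present in livers with and without BMAL1.

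**Figure D2:**
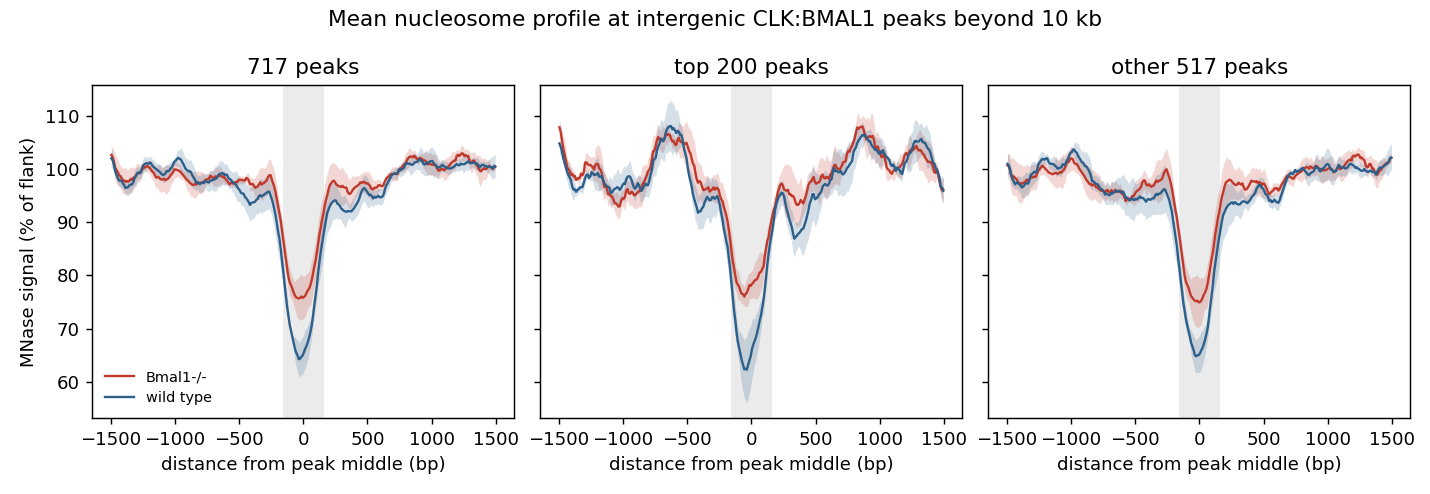
MNase signal in percent of the flank (vertical axis) against distance from the peak middle in bp (horizontal axis), for the whole class, the top 200 and the remaining peaks. Lines are means of 4 replicate series in Bmal1-/- (red) and in wild type (blue), bands are ± 1 SD, and grey marks the central 150 bp on each side. The lowest points over the whole class are 75.7% in Bmal1-/- and 64.2% in wild type.

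The relative central signal, which is the mean within 150 bp of the middle in percent of the flank, averaged 79.02%, 75.96%, 83.2% and 80.9% over the day in Bmal1-/- series 5, 8, 9 and 10. In wild-type series 11, 12, 26 and 27 it averaged 72.6%, 70.7%, 70.8% and 71.1%. The lowest of the Bmal1-/- series, number 8, was still above the highest of the wild-type series, number 11. The means were 79.8% ± 3.05 in Bmal1-/- and 71.3% ± 0.868 in wild type (SD, n = 4 series each), 8.48 percentage points apart (two-sided exact permutation p = 0.0286, the smallest that 4 series against 4 allow). The spread between mice at a given time was 5.23 percentage points in Bmal1-/- and 2.39 in wild type (pooled SD). With 1 wild-type series fewer the exact p was 0.0571 without replicate 12, 26 or 27, at differences of 8.28 to 8.42.

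The difference was present in both parts of the class. In the top 200 peaks relative central signal was 80.1% ± 2.29 in Bmal1-/- and 70.2% ± 2.34 in wild type (SD, n = 4 series each), 9.83 percentage points apart. In the remaining peaks it was 79.6% ± 3.36 in Bmal1-/- and 71.7% ± 1.31 in wild type (SD, n = 4 series each), a difference of 7.94. Both had two-sided exact permutation p = 0.0286, and the adjusted p over the 3 overlapping peak groups was 0.0286 (Benjamini-Hochberg). In the remaining peaks the exact p was 0.0571 without any 1 of the 4 wild-type replicates (7.38 to 8.34). The genotype difference in the top 200 exceeded that in the remaining peaks by 1.89 percentage points, a size that missed the threshold (exact permutation p = 0.343). Averaged over all times, the depth of the trough was not shown to differ between both parts, with a top 200 minus remaining peaks value of -0.507 percentage points (exact sign-flip permutation p = 0.617 over 8 series). Measured against the flank of all peaks in place of their own, the value was -2.33 percentage points (exact sign-flip permutation p = 0.0469). The top 180 peaks gave 80.7% ± 1.75 in Bmal1-/- and 70.1% ± 1.91 in wild type (SD, n = 4 series each).

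Position by position, the genotype difference lay within the trough. By limma over all 8100 positions of the 27 deposited peak sets, 250 bp of the 3000 bp window of the class were higher in Bmal1-/- and 0 bp lower at adjusted p under 0.05 (540 bp in either direction at an unadjusted p under 0.05). Calls are given in bp because neighbouring positions share fragments. The 250 bp ran from -145 to 95 bp, and none lay beyond 150 bp of the middle. Of all positions of all sets, 7.7% were called higher and 0.173% lower, so the share called in the class was close to that over all sets. The position of the class with the smallest adjusted p differed by 0.10 on the scale of log2(signal + pseudocount) at -35 bp (limma adjusted p = 4.01e-05). These fits take the mice of 1 series as independent. A limma fit to 8 series means called 0 bp of the class (170 bp at an unadjusted p under 0.05). In that fit 40 bp of the top 200 profile and 1.51% of all positions of all sets were called higher. With quantile normalization 20 bp were called higher, none of them in the central 150 bp on either side, against 4.59% of all positions of all sets. Centring the libraries on their medians gave 470 bp, of which 280 bp lay in that centre, against 13.2% of all positions. Without replicate 8, 620 bp of the class were called higher, and so were 16.4% of all positions of all sets. Without replicate 5, 600 bp of the class were called lower, and so were 33.7% of all positions, so that shift was not one of the class alone.

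**Figure D3:**
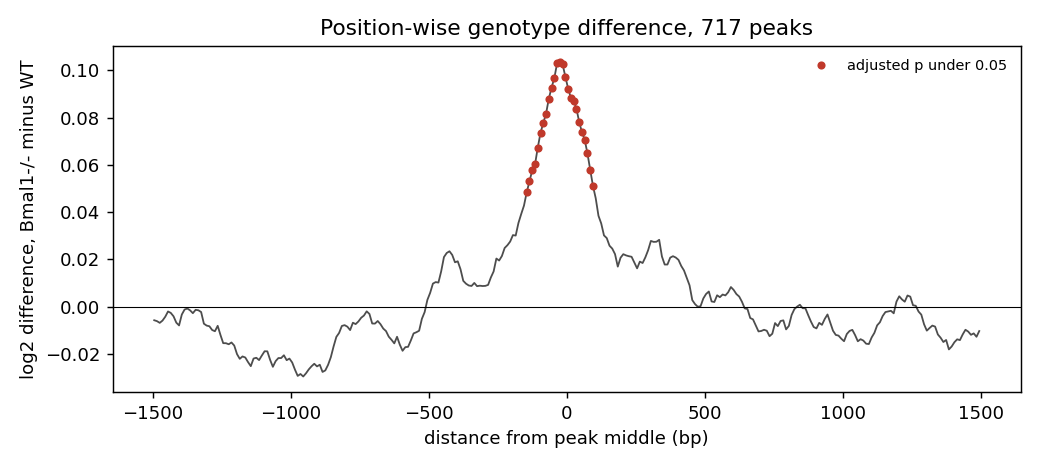
Difference between Bmal1-/- and wild type in log2(signal + pseudocount) (vertical axis) at each position from the peak middle in bp (horizontal axis), whole class. Red points mark the 250 bp at adjusted p under 0.05 in limma, from -145 to 95 bp, all higher in Bmal1-/-.

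As scaled by the authors and not divided by the flank, central signal was 5.27 ± 0.285 in Bmal1-/- and 4.78 ± 0.102 in wild type (SD, n = 4 series each). The difference of 0.494 signal units missed the threshold (exact permutation p = 0.0571, adjusted p = 0.229 over 4 measures of shape and level). It was 0.633 without replicate 8 (exact permutation p = 0.0286). Flank signal was 6.61 ± 0.189 in Bmal1-/- and 6.70 ± 0.114 in wild type (SD, n = 4 series each), a difference of -0.0934 (exact permutation p = 0.486, adjusted p = 0.486).

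Outside the trough the profile carried weak ripples. To the left of the middle, the class profile had local maxima at -265, -455, -645 and -985 bp in Bmal1-/- and at -285, -635 and -975 bp in wild type. To the right, a second maximum lay at 465 bp in Bmal1-/- and at 475 bp in wild type. The first maxima on each side were at 98.8% and 97.8% of the flank in Bmal1-/- and at 95.5% and 94.1% in wild type. Between the first and second maxima on the right, signal dipped to 95.4% in Bmal1-/- and to 92.1% in wild type. This dip was deeper in the top 200 peaks, at 93.3% in Bmal1-/- and 87.2% in wild type. Shoulder signal, the mean from 150 to 500 bp on both sides, was 96.4% ± 2.13 of the flank in Bmal1-/- and 92.99% ± 2.77 in wild type (SD, n = 4 series each). That is 3.37 percentage points apart and missed the threshold (exact permutation p = 0.171, adjusted p = 0.343).

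The trough was not symmetric about the peak middle. The left part of the centre had less signal than the right in 20 of 23 Bmal1-/- libraries, with means of 78.2% and 81.6% of the flank. The same held in 22 of 24 wild-type libraries, with means of 68.7% and 73.8%. The lowest position of a library had a median of -25 bp in both genotypes. The peaks have no orientation in the list. The signal values carry no position labels, so positions were taken from their order, with the left read as the lower coordinate. Whether that axis is offset from the true peak middle was not tested.

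Width set the wild-type series apart. The trough width, taken at the level midway between the lowest central value and the flank, averaged 296.04, 273.2, 252.6 and 254.6 bp in Bmal1-/- series 5, 8, 9 and 10. It averaged 338.1, 322.7, 256.5 and 254.7 bp in wild-type series 11, 12, 26 and 27. By library the width was 292.2 to 379.5 bp in series 11, 289.5 to 341.6 bp in series 12, 241.5 to 269.6 bp in series 26 and 241.99 to 278.8 bp in series 27. The libraries of series 11 and 12 were thus all wider than those of series 26 and 27. Series 11 and 12 also had the lowest shoulder signal, at 90.3% and 90.96%, against 94.9% and 95.8% in series 26 and 27. Mean relative depth was 1.35 and 1.27 in series 11 and 12 and 1.81 and 1.64 in series 26 and 27. The labels give no reason for these differences, and the part of depth in them was not tested. Genotype means of trough width were 269.1 ± 20.2 bp in Bmal1-/- and 292.995 ± 43.6 bp in wild type (SD, n = 4 series each; difference -23.9 bp, exact permutation p = 0.286, adjusted p = 0.381).

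The second comparison followed the genotypes through the day. At ZT02 relative central signal over the class was 82.6%, 75.999%, 88.4% and 83.3% in the Bmal1-/- mice, against 75.5%, 72.8%, 70.4% and 73.3% in the wild-type mice. At ZT06 it was 70.6%, 77.2%, 85.2% and 82.2% in Bmal1-/- mice, against 68.6%, 65.03%, 66.1% and 67.1% in wild-type mice. At ZT10 it was 73.8%, 76.3%, 77.4% and 74.8% in Bmal1-/- mice, against 69.1%, 67.1%, 69.5% and 67.1% in wild-type mice. At these 3 times of the light phase no Bmal1-/- mouse fell within the range of wild type. The Bmal1-/- mice were closest to one another at ZT10, with an SD of 1.6 percentage points, and at ZT06 Bmal1-/- replicate 5 lay within 2 points of the highest wild-type mouse. The gap was narrower at ZT02, between 75.999% in Bmal1-/- replicate 8 and 75.5% in wild-type replicate 11.

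At ZT14 the values were 78.6%, 78.1%, 88.98% and 82.2% in Bmal1-/- mice, against 69.3%, 68.2%, 74.2% and 70.4% in wild-type mice, and the groups did not overlap. At ZT18 they were 77.6%, 72.2%, 82.6% and 82.2% in Bmal1-/- mice, against 74.2%, 77.9%, 75.1% and 73.8% in wild-type mice. Here the groups overlapped, with Bmal1-/- replicate 8 below all wild-type mice. At ZT22 they were 90.9%, 76.5% and 80.6% in Bmal1-/- replicates 5, 9 and 10, against 78.7%, 73.3%, 69.2% and 75.02% in wild-type mice. The groups overlapped again. The value of 90.9% was far above the 70.6% to 82.6% of replicate 5 at the 5 other times, and the trough width of that library was 143.9 bp, against 295.96 to 341.5 bp at the other times.

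The difference between genotypes was 9.59 percentage points for ZT02 mice, 12.1 for ZT06, 7.37 for ZT10 and 11.5 for ZT14, each with exact permutation p = 0.0286 (adjusted p = 0.0429 over 6 times). It was 3.41 at ZT18 (exact permutation p = 0.257, adjusted p = 0.257) and 8.63 at ZT22 (exact permutation p = 0.0857, adjusted p = 0.103). That the difference is smaller at ZT18 than at other times was not tested by itself. The exact p was 0.0571 at both ZT02 and ZT06 without any 1 wild-type replicate (8.73 to 10.4 and 11.5 to 12.7 percentage points), and at ZT06 with the centre taken within 250 bp (9.67). The ZT22 difference was 4.51 without Bmal1-/- replicate 5. Without ZT22, the difference over the other times was 8.78 percentage points (exact permutation p = 0.0286).

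**Figure D4:**
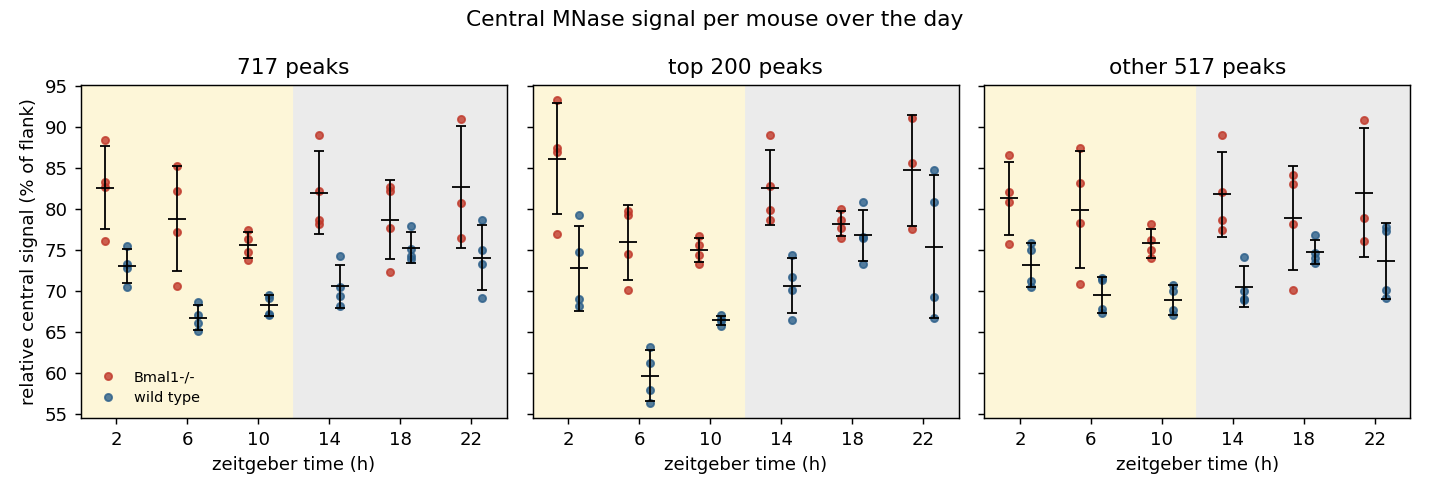
Relative central signal in percent of the flank (vertical axis) of each mouse at the 6 zeitgeber times in h (horizontal axis), for the whole class, the top 200 and the remaining peaks. Red points are Bmal1-/- mice, blue points wild-type mice, black marks the mean ± SD of 3 or 4 mice, and the yellow and grey areas are light and dark. Wild-type mice at ZT06 sit between 56.3% and 63.1% in the top 200 peaks and between 67.2% and 71.5% in the remaining peaks.

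The third comparison asked whether the trough changes between the 3 times in the light, from ZT02 to ZT10, and the 3 in the dark, from ZT14 to ZT22, and whether it does so alike in both parts of the class. Wild-type livers had a relative central signal over the class of 69.3% ± 3.18 in the light, against 73.3% ± 3.38 in darkness (SD, n = 12 mice each). Light minus dark was -3.97 percentage points (permutation p = 0.00878, adjusted p = 0.0263 over 6 tests). It had the same sign in 4 of 4 series, and did not pass with the centre taken within 250 bp (-2.50, permutation p = 0.0529). A fitted 24 h cosine wave reached 4.17 ± 0.699 percentage points in amplitude, with its minimum at ZT 8.34 ± 0.640 h (SE, n = 24 mice; permutation p = 7e-05, adjusted p = 0.00014 over the 2 genotypes). In order, the wild-type means were 72.99% at ZT02, 66.7% at ZT06, 68.2% at ZT10, 70.5% at ZT14, 75.3% at ZT18 and 74.04% at ZT22. The deposited profile of all peaks was also lower in the light in wild type. It gave 67.1% ± 2.84 in the light and 71.8% ± 2.73 in darkness (SD, n = 12 mice each). The class was not tested against it.

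In wild type the top 200 peaks passed this test and the remaining peaks did not. In the top 200, relative central signal was 66.3% ± 6.44 in the light, against 74.2% ± 5.82 in darkness (SD, n = 12 mice each), which makes -8.00 percentage points (permutation p = 0.00496, adjusted p = 0.0263). In the remaining peaks it was 70.5% ± 2.83 in the light, against 72.9% ± 3.40 in darkness (SD, n = 12 mice each), and the value of -2.44 missed the threshold (permutation p = 0.0705, adjusted p = 0.141). Over a centre of 50 bp on each side the remaining peaks gave -4.33 (permutation p = 0.0353). The sign was the same in 4 of 4 series in both parts.

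At ZT06 the top 200 peaks in wild-type mice had 61.2%, 57.9%, 63.1% and 56.3% relative central signal, and the lowest point of the mean profile was 48.9% of the flank. In the same mice the remaining peaks had 71.5%, 67.8%, 67.2% and 71.3%, with a lowest point of 60.6%. The top 200 were lower in 4 of 4 mice, with top 200 minus remaining peaks values of -10.3, -9.93, -4.12 and -15.0 percentage points. In Bmal1-/- mice at ZT06 the top 200 peaks had 70.1%, 74.5%, 79.2% and 79.8%, and the remaining peaks had 70.8%, 78.2%, 87.4% and 83.1%. The top 200 were lower in 4 of 4 of these mice too, with a mean of -4.00 percentage points, against -9.86 in wild type. At ZT02 the Bmal1-/- mice went the other way, with top 200 minus remaining peaks values of 6.60, 1.19, 6.66 and 4.92, so that the top 200 were higher in 4 of 4 mice. The Bmal1-/- means of this value were 4.84, -4.00, -0.830, 0.798, -0.653 and 2.76 percentage points from ZT02 to ZT22. The wild-type means were -0.365, -9.86, -2.47, 0.138, 2.06 and 1.79 from ZT02 to ZT22. Wild-type mice differed widely at ZT22, where the top 200 minus remaining peaks value was 3.03, 15.6, -3.39 and -8.05.

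The difference between both parts was tested for light against dark after these values were seen. In wild type the top 200 minus remaining peaks value averaged -4.23 ± 5.98 percentage points in the light, against 1.33 ± 5.62 in darkness (SD, n = 12 mice each), a change of -5.56 with the same sign in 4 of 4 series (permutation p = 0.0256, adjusted p = 0.0512 over 2 genotypes). It thus failed the adjustment, and the permutation p was 0.132 without replicate 11, 0.0625 without replicate 26, and 0.109 with the centre taken within 50 bp. In Bmal1-/- the value averaged 0.00498 ± 4.42 in the light (SD, n = 12 mice), against 0.807 ± 3.795 in darkness (SD, n = 11 mice), a change of -0.802 (permutation p = 0.646, adjusted p = 0.646). The change differed between genotypes by 4.41 percentage points, as the mean of series values (exact permutation p = 0.0857; 5.91 and p = 0.0286 without replicate 8).

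**Figure D5:**
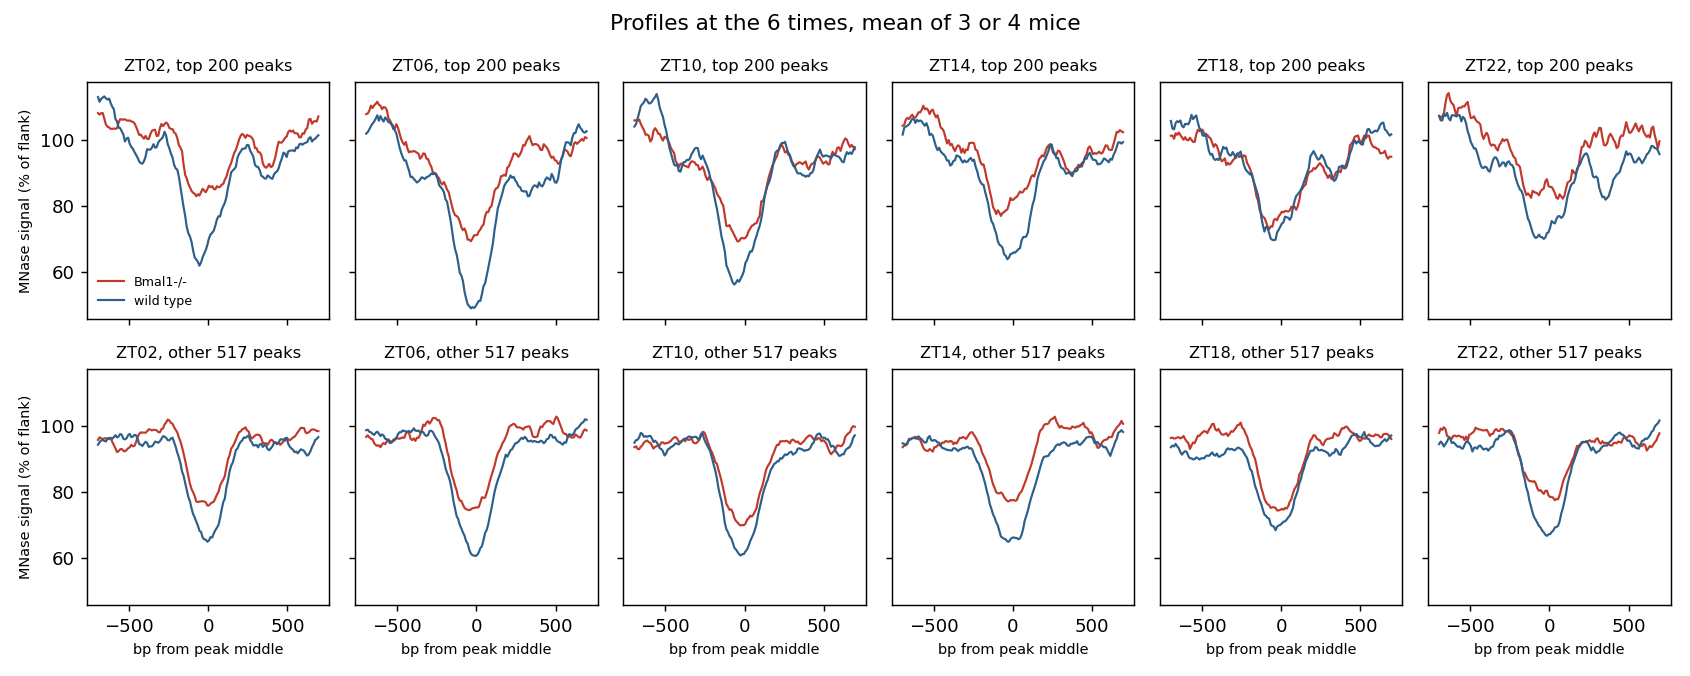
MNase signal in percent of the flank (vertical axes) against distance from the peak middle in bp (horizontal axes) at each of the 6 times, for the top 200 peaks (upper row) and the remaining peaks (lower row). Lines are means of 3 or 4 mice in Bmal1-/- (red) and in wild type (blue). In the top 200 peaks at ZT06 the lowest points are 69.2% in Bmal1-/- and 48.9% in wild type, and at ZT18 they are 72.9% in Bmal1-/- and 69.6% in wild type.

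In Bmal1-/- livers no change over the day passed a test. Relative central signal over the class was 78.98% ± 5.29 in the light (SD, n = 12 mice), against 80.96% ± 5.39 in darkness (SD, n = 11 mice). Light minus dark was -1.98 percentage points (permutation p = 0.383, adjusted p = 0.451), and 2 of 4 series had that sign. The top 200 peaks gave -2.57 (permutation p = 0.318, adjusted p = 0.451) and the remaining peaks gave -1.77 (permutation p = 0.451, adjusted p = 0.451). The 24 h amplitude was 2.44 ± 1.59 percentage points with its minimum at ZT 10.3 ± 2.38 h (SE, n = 23 mice; permutation p = 0.307, adjusted p = 0.307). In order, the Bmal1-/- means were 82.6%, 78.8%, 75.6%, 81.97%, 78.7% and 82.7% from ZT02 to ZT22.

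The genotypes were not shown to differ in their change over the day. As the mean of series values, light minus dark was -1.50 ± 3.73 percentage points in Bmal1-/- and -3.97 ± 0.769 in wild type (SD, n = 4 series each). These are 2.47 apart, which missed the threshold (exact permutation p = 0.257), except without Bmal1-/- replicate 5 (4.22, exact permutation p = 0.0286). Between genotypes, the fitted cosine waves were 2.88 percentage points apart (exact permutation p = 0.286). By limma, light against dark called 0 bp of the class profile in either direction in wild type, where 140 bp had an unadjusted p under 0.05, and 0% of all positions of all sets were called higher and 1.43% lower. With the replicate numbers as a block, 100 bp of the 3000 bp were called lower in the light in wild type, a smaller share than the 5.19% of all positions of all sets called lower in that fit. In the top 200 profile limma called 150 bp lower in the light in wild type without the block and 220 bp with it. With 1 series fewer, 0 bp of the top 200 were called without replicate 11, 12 or 26 and 60 bp without replicate 27. Of all positions of all sets, 0% were called lower without replicate 11, 12 or 26 and 0.383% without replicate 27. The top 200 count was also 0 bp with quantile normalization, 60 bp with 10 times the pseudocount and 40 bp without ZT22. Those fits called 0%, 0.568% and 0.259% of all positions lower. In Bmal1-/- limma called 0 bp of the class in either direction (10 bp at an unadjusted p under 0.05), against 0% of all positions.

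The class was last set beside 3 others. Over all peaks, the class included, the genotype difference was 8.53 percentage points. The genotype difference of the class, 8.48 percentage points, stood beside 3.47 at TSS peaks. It exceeded the TSS value by 5.003 (exact permutation p = 0.0286, adjusted p = 0.0857 over 3 classes), so the contrast did not pass the adjustment. With the centre within 250 bp this contrast was 3.97 (exact permutation p = 0.257). The trough at distal sites was the shallower of the 2 in each genotype, with relative central signal above that of TSS peaks by 17.5 percentage points in Bmal1-/- and by 12.5 in wild type. Against intron peaks the genotype difference was 2.06 percentage points smaller (exact permutation p = 0.143, adjusted p = 0.214), and it was 2.93 smaller without replicate 26 (exact permutation p = 0.0286). Against intergenic peaks within 10 kb it was 0.476 larger (exact permutation p = 0.571, adjusted p = 0.571).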

How the data were processed

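MNase-seq libraries came from 47 livers. Per the labels' protocols, livers were crosslinked with 1% formaldehyde for 10 min, nuclei were digested with micrococcal nuclease for 15 min, and fragments of about 150 nt were made into libraries. CASAVA 1.7, Bowtie and the mm9 build are listed in the submitters' processing notes. The authors deposited signal, a scaled coverage averaged over peaks; how it was scaled is not stated in the labels or headers. The peak list, per the file headers, gives positions and 1 class per peak. The class has 717 peaks, and its profile outside the top 200 is that of the remaining 517.

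Peak width counts both ends. The worth of 1 fragment was read as the common step of the smallest sets (100% of values whole within 0.1 of a step), which gave fragments and relative depth; such counts cover counting error alone. Series means were compared by exact permutation tests, light against dark by 100000 permutations of mice (exact below 10 a group), and positions by limma 3.58.1 in R 4.3.3 (eBayes with trend, 12 groups) on log2(signal + 5.513), the 10th percentile as pseudocount, a scale that understates the change of the signal. P-values were adjusted by Benjamini-Hochberg, and 0.05 was the threshold. Tests ran in Python 3.11.15 and were checked on simulated data. Named peaks were the first 5 of the class, the 3 widest and the closest pair. Members and lists were chosen with earlier results of these data known. Nothing in the labels says how the mice of a number relate, so p-values reflect only the spread between these samples.

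Mice of 1 replicate number tended to deviate together, though not in every series, and this was not tested. Over the positions of the 717-peak profile, light and dark deviations of the same number correlated at 0.304 to 0.584. The highest correlation with another number of the same genotype was 0.0862 to 0.481. For Bmal1-/- replicate 10 and wild-type replicate 12 another number correlated more than the same number. The pairing comes from the labels' numbers, which are not explained there. Other settings of centre, flank, scale, pseudocount, filter and normalization and the omission of each replicate and of ZT22 were tried. The genome at hand is of another build and was not used.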

Additional observations from a re-analysis of the deposited data

Results flagged for a closer look

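Of 44 groups of 4 mice examined for a mouse far from the others, in relative central signal of the whole class, the top 200 and remaining peaks and in trough width, 1 had one, where chance gives about 1 in 20. At ZT06 the trough of Bmal1-/- replicate 5 over the class was 341.5 bp wide, and the nearest mouse of its group had 247.7 bp.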

How the results depend on the processing

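Of 460 values under other settings of 37 results, 415 kept their direction and side of the threshold, 24 lost and 7 gained the call, 6 changed sign and 8 counts or values moved; the cause was not tested except where stated. With the centre within 50 bp the genotype difference in the remaining peaks was 9.67 (exact permutation p = 0.0571), the top 200 minus remaining peaks level 1.12, and light minus dark in wild type -4.33 in the remaining peaks and -6.04 in top 200 minus remaining peaks. With the centre within 250 bp, ZT06 gave 9.67, light minus dark in wild type -2.50 and, for top 200 minus remaining peaks, -4.21, and the contrasts with TSS peaks and with peaks within 10 kb 3.97 and -0.329. With the flank of all peaks the top 200 against the remaining peaks gave -2.33 and ZT22 gave 9.11, and on the log2 ratio scale the TSS contrast was 0.084.

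Without 1 replicate at a time the ranges were 7.33 to 9.74 (whole class) and 6.64 to 9.32 (remaining peaks) for genotype, 7.64 to 11.8 at ZT02 and 9.94 to 14.8 at ZT06. They were -0.960 to 0.139 for the top 200 against the remaining peaks and 0.421 to 0.633 for central signal as scaled. The contrast with intron peaks ranged from -2.93 to -1.43 and that with peaks within 10 kb from -0.0457 to 0.984. Light minus dark in the remaining peaks of Bmal1-/- ranged from -2.59 to 0.164. For top 200 minus remaining peaks it was -1.86 to 0.350 in Bmal1-/- and -6.28 to -4.93 in wild type. The genotype difference of light minus dark was 1.53 to 4.22 (whole class) and 3.29 to 5.91 (top 200 minus remaining peaks).

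By limma, the bp higher in Bmal1-/- were 0 without the 25% of positions of lowest signal, which removes the trough itself. They were 470 with median centring, 20 with quantile normalization and 0 over the 8 series means. Of all positions of all sets, 0%, 13.2%, 4.59% and 1.51% were called higher in these fits, in that order. Without 1 replicate the bp of the class were 200 to 620 higher and 0 to 600 lower. The shares of all positions were then 5.23% to 16.4% higher and 0% to 33.7% lower. The bp lower in the light in wild type were 10 with median centring and 100 with the replicate block, against 3.46% and 5.19% of all positions. With the replicate block the wild-type light minus dark p was 0.0123 (whole class) and 0.0062 (top 200), and the block changed no other call. Settings without ZT22 and the light-dark tests of top 200 minus remaining peaks were chosen after seeing the data. The E-box description was not run. Depth is limited to an average over peaks, with 1.89% to 2.55% counting error in the top 200.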
